A study of Mus musculus with 72 samples.

Results

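The nuclear respiratory chain genes encode the subunits of the 5 enzyme complexes of the inner mitochondrial membrane that are made from chromosomal DNA. Members were taken by symbol from the gene names in the authors' deposited tables, namely protein-coding symbols that begin with Ndufa, Ndufb, Ndufc, Ndufs, Ndufv, Sdha to Sdhd, Uqcr, Cox4 to Cox8 or Atp5, with the Ndufaf assembly factors left out. This gave 85 of the 19524 protein-coding symbols there, and all 85 were among the 21749 genes listed in all 10 count tables. Complex I contributed 39 members, complex II 4, complex III 8, complex IV 16 and complex V 18. Complexes were assigned by symbol, so Ndufa4, known to be a subunit of complex IV, is counted under complex I throughout. The symbol Atp5o belongs to 2 Ensembl genes, and the one with far fewer reads is written Atp5o-116933 after the last digits of its identifier. The symbols Cox5b-ps and Ndufb11b were kept, since the deposited names class them as protein coding. Cox4i1, Ndufa13 and Cox6a2, which also encode subunits, were not among the named genes and were not analysed here. The mitochondrial genes that encode the remaining subunits are listed at 0 in every table.

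RNA came from the hypothalamus of adult B6 mice in 5 knockout lines, named E1 to E5 after the conserved noncoding element that each lacks, elements tied by the submitters to hibernation. Each line had fed wild types, fed knockouts, wild types deprived of food for 72 h with water, and knockouts deprived in the same way. These made 20 groups and 72 libraries, with 4 libraries in a group except 3 in every E3 group, in the E2 fasted wild types, E2 fasted knockouts, E4 fasted knockouts and E1 fasted wild types. The titles of the authors' deposited count tables join the gene symbol Fto to each element, without a position. The labels give no position for any element, no sex, no age beyond adult, no number of founders and no statement that littermates were used. No wild type is shared between lines. No label says that the replicates of a group came from separate animals, so p-values measure the spread between these libraries. Fed and fasted libraries of the same line shared a batch label only in E1 and E3, and E5 fasted and E2 fed libraries shared another. The count columns of the E3 libraries are headed ctrl and 3CR rather than fed and fasted, and their feeding state was taken from the table each column stands in. In E2, E4 and E5 the batch and fasting within a line therefore cannot be told apart.

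Reads per library summed to between 5517552 and 39999368. Other parts of the brain and neighbouring tissue entered the dissections unevenly. The summed level of 8 hypothalamic genes (Hcrt, Pmch, Avp, Oxt, Agrp, Pomc, Sim1 and Nr5a1) ran from 108 to 2293 scaled CPM (normalized read counts relative to library size), and no library lacked their RNA altogether. The summed pituitary list reached 19583 in an E5 fasted knockout, the choroid plexus list 3252 in an E5 fasted wild type and the fat list 9053 in an E2 fed knockout. All values of level below are scaled CPM, that is, CPM over protein-coding genes after scaling between libraries by the trimmed mean of M-values (TMM) method. In bulk tissue, fewer cells of a type and less RNA per cell cannot be told apart.

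Electrons from NADH enter the chain at complex I and those from succinate at complex II. Both pass by ubiquinone to complex III and by cytochrome c to complex IV, which reduces oxygen, and the protons pumped on the way drive ATP synthesis by complex V. Most subunits are encoded in the nucleus, and nuclear respiratory factor 1 (NRF1) and the GA-binding protein (GABPA) are well known regulators of many of these genes. Neurons depend on this pathway for most of their ATP, and hypothalamic neurons also sense the energy state of the body.

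The promoters of 4 members are shown because Cox6a1, Ndufa6, Atp5j and Ndufa4 rose in several of the fasting comparisons below while they differ in which of these regulators' core words they carry. Each sequence is the 180 bases that end just before the RefSeq transcription start, read 5′ to 3′ on the minus strand, which is the gene's strand, in build GRCm38.p6. Capitals mark the exact words GCATGCGC (NRF1), CCGGAAG (GABPA) and AAGATGGC (YY1) on either strand, and the reversed forms are GCGCATGC, CTTCCGG and GCCATCTT. The NRF1 word overlaps its own reverse in Cox6a1, where both strands match. The windows lie at chr5:115348959-115349138 for Cox6a1, chr15:82354292-82354471 for Ndufa6, chr16:84834977-84835156 for Atp5j and chr6:11907451-11907630 for Ndufa4.
Cox6a1: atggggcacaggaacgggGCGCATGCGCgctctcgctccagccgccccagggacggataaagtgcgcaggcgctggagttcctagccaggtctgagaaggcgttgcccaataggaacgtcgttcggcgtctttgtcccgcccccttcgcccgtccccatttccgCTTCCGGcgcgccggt
Ndufa6: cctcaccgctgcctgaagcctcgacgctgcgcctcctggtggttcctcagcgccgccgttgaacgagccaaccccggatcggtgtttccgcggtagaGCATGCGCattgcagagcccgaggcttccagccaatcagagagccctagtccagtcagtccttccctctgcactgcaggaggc
Atp5j: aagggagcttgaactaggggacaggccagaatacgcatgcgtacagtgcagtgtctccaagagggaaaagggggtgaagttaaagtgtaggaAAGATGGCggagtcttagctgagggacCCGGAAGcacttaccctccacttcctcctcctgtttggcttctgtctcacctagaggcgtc
Ndufa4: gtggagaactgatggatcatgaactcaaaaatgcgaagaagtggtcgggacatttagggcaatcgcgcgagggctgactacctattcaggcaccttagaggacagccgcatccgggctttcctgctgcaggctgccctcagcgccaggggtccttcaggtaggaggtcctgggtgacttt

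RefSeq promoters were matched by symbol for 69 of the 85 members, and the words were counted in the 250 bases before each start. The NRF1 word stood in the promoters of 8 of 69 members (11.6%), against 3.32% of all 17491 genes with a promoter. The GABPA word stood in 12 of 69 (17.4%), against 10.2% of all genes. The YY1 word stood in 1 member (1.45% against 1.77%) and the word AAGGTCA of the oestrogen-related receptors in 5 (7.25% against 4.18%). GGGCGG, the core of SP1 sites, stood in 36.2% of members and 45.8% of all genes, and TATAAA in 10.1% and 13.7%. In all, 18 members held an NRF1 or GABPA word and 51 held neither, and Cox6a1 and Atp5l held both. A word is a match of letters, not a bound site, and its absence says only that those letters are not in the window.

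Transcript lengths of the members were short, with a median of 763 bases (range 360 to 4715) against 2681 for all genes, and 55 of 85 were under 1000 bases. Their GC content had a median of 51.3% against 49.6%. An index of short over long transcripts (the difference of their log2 levels) differed between libraries of this series, so short protein-coding genes outside the pathway are given below as a yardstick.

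Per kilobase of transcript, the 2 subunits of the catalytic head of complex V stood highest, with a mean over the 72 libraries of 275 scaled CPM per kilobase for Atp5b (the beta subunit) and 171 for Atp5a1 (the alpha subunit). Atp5md, a small membrane subunit of complex V, followed at 167, Cox8a at 162 and Cox6c, both small subunits of complex IV, at 149. At the other end, Ndufa4l2, a paralogue of Ndufa4 known from hypoxic cells and pericytes, stood at 0.895 and Cox4i2, the lung form of Cox4, at 0.971. Cox8b, the form of Cox8 used by heart, skeletal muscle and brown fat, stood at 1.11, and Atp5o-116933 at 2.01. Ndufb11b had 10 reads in all and none in 66 libraries, so it was tested in no comparison. These values depend on the length of the transcript chosen for each gene.

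Of the complex IV subunits with a measured tissue form, the common form stood above the restricted one. Mean levels per gene were 84.99 scaled CPM for Cox6b1 against 1.19 for its testis form Cox6b2, and 54.9 for Cox7b against 4.32 for Cox7b2. Cox6a1, whose muscle form was not analysed here, stood at 65.2. Cox7a2 stood at 40.1 and Cox7a2l, which links complexes III and IV into supercomplexes, at 79.2, while the muscle form Cox7a1 stood at 1.37. The 3 genes Atp5g1, Atp5g2 and Atp5g3 encode the same mature ring subunit of complex V and stood at 64.6, 45.6 and 66.4. Since the lengths in each pair differ, these levels are per gene and not per kilobase.

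The E3 line differed in level from the others for a few members. In 4 of the 77 members with a mean log2 CPM over 1, all 12 E3 libraries lay above all 60 libraries of the other lines, against 1.41% of the 13459 genes at that level. In 0 members did all E3 libraries lie below, against 2.54%. Cox6c ran from 126 to 500 in E3 (median 179) and from 21.2 to 71.4 elsewhere (median 41), a ratio of medians of 4.37. Uqcrb, a small subunit of complex III, ran from 45.9 to 160 in E3 and from 11.4 to 36.1 elsewhere, a ratio of 3.98. Ndufb1 ran from 21.5 to 58.5 against 5.46 to 13.4, a ratio of 3.33, and Ndufs5 from 40.8 to 76.5 against 13.9 to 33.7, a ratio of 2.22. Both are accessory subunits of complex I. The Y-linked gene Ddx3y ran from 77.4 to 153 in all 12 E3 libraries and from 0 to 0.317 in the others, and no other line was in the E3 batch, so line, batch and sex cannot be told apart. Summed astrocyte markers also stood apart (3001 to 4381 in E3 and 1505 to 2754 elsewhere), neuronal markers were higher with some overlap (3152 to 4693 and 1456 to 3694), and the part of cell makeup was not tested. The GENCODE annotation names the Ndufb1 gene as a pseudogene, Ndufb1-ps, and small subunits such as Cox6c and Uqcrb have processed pseudogene copies. How reads shared with copies were counted is not given in the sources used here, so these levels are uncertain to that extent.

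**Figure D1:**
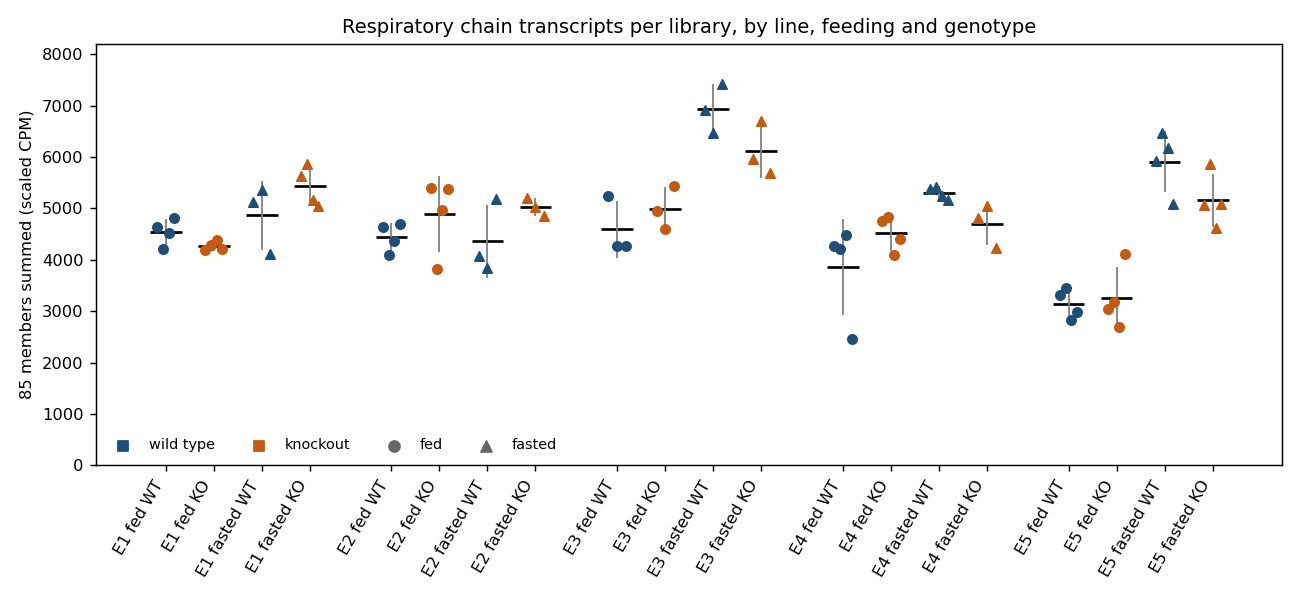
Each point is 1 library and gives the 85 members summed, in scaled CPM, by line, feeding state and genotype; bars are group means. The 3 E3 fasted wild types reach 6465 to 7428, and the 4th E4 fed wild type stands lowest at 2464.

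The members summed stood higher in fasted than in fed libraries of the lines with one batch. In E3 wild types the sum was 5240, 4272 and 4273 in fed libraries and 6909, 6465 and 7428 in fasted ones, with no overlap. In E3 knockouts it was 4958, 4597 and 5432 fed and 5957, 6711 and 5695 fasted, again with no overlap. In E1 knockouts it was 4184, 4298, 4385 and 4203 fed and 5630, 5865, 5172 and 5055 fasted, also apart. E1 wild types overlapped, with 4643, 4209, 4519 and 4813 fed and 5134, 5366 and 4107 fasted, the third fasted library standing below all 4 fed ones. The plot of the members summed by library shows these values beside the other lines.

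In E5, where the batches differ, the sum was 3310, 3461, 2826 and 2993 in fed wild types and 5923, 6465, 6172 and 5084 in fasted ones. In E4 it was 4262, 4202, 4483 and 2464 in fed wild types and 5387, 5427, 5240 and 5155 in fasted ones. E2 wild types overlapped, with 4643, 4088, 4369 and 4689 fed and 4076, 3842 and 5175 fasted. These 3 pairs received no test, since fasting went with the batch.

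Tests of fasting used edgeR's quasi-likelihood test over all genes with Benjamini-Hochberg adjustment, and a gene was called where the adjusted p was under 0.05. In E3 wild types, 51 of 82 members tested rose and 0 fell, against 19.9% of all 14534 genes called, 11.5% upward and 8.43% downward. The median log2 fold change of the members was 0.61, beside 0.02 over all genes. Short protein-coding genes outside the pathway, under 1000 bases, were called in 30.2% with a median of 0.38. The index of short over long transcripts was -0.13 to -0.27 in the 3 fed libraries and -0.01 to 0.04 in the fasted ones. The index of GC-rich over GC-poor genes was -0.49 to -0.61 fed and -0.75 to -1.14 fasted, also with no overlap. Markers of other cell types moved too: 3 neuronal genes summed to 3561 to 3933 fed and 4313 to 4693 fasted, 4 endothelial genes to 90.3 to 117 and 34.6 to 51.5, and 5 pericyte genes to 78.2 to 90.2 and 39.5 to 55.7. All 4 endothelial and 3 of the 5 pericyte genes were called downward, and the part of cell makeup in the members' values was not tested. With a GC trend taken out, 53 members were called. The part of length was not tested beyond a correction: with a length trend taken out, 24 members were called and their median was 0.21. The shares of all genes called in the GC and length corrected fits are not given here, so these counts have no background beside them.

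The members with the largest rise in E3 wild types were small subunits. Atp5md stood at 80.0, 63.6 and 69.2 in fed E3 wild types and at 260.96, 168 and 237 in fasted ones, a log2 fold change of 1.66 (SE 0.17, edgeR adjusted p = 0.00155). Cox6c stood at 155, 126 and 131 fed and at 500, 334 and 414 fasted, a change of 1.61 (SE 0.16, edgeR adjusted p = 0.00155). For both, every fasted library stood above every fed one. Uqcrb went from 63.3, 49.2 and 45.9 to 160, 115 and 154, a change of 1.45 (SE 0.16, edgeR adjusted p = 0.00171). Ndufa4, named for complex I and known to be a subunit of complex IV, went from 46.2, 32.96 and 36.9 to 105, 83.6 and 104, a change of 1.34 (SE 0.15, edgeR adjusted p = 0.00163). Cox7b, a small complex IV subunit, went from 58.7, 51.9 and 51.4 to 127, 100 and 135, a change of 1.17. None of these groups overlapped.

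By complex as assigned by symbol, 24 of 37 members of complex I rose in E3 wild types and 1 of 4 of complex II. In complex III 7 of 8 rose, in complex IV 9 of 15 and in complex V 10 of 18. Sdhd, a membrane anchor of complex II, was the 1 called there and stood at 29.3, 22.2 and 23.9 fed and at 34.6, 36.2 and 37.9 fasted. In complex IV Cox7c (0.99, SE 0.14) and in complex V Atp5j (1.07, SE 0.12), the coupling factor of the stalk, were also called. In complex I the flavoprotein subunit Ndufv2 rose by 0.80 (SE 0.10), and the accessory subunits Ndufa12 by 0.72 (SE 0.10) and Ndufb4 by 1.07 (SE 0.16).

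A selection of 9 subunits, catalytic, core and accessory, was followed through all comparisons. Of these, Ndufs1, Ndufv1, Sdha, Sdhb, Uqcrc1, Uqcrfs1, Cox5a, Atp5a1 and Atp5b, 1 was called in E3 wild types: Uqcrfs1, the Rieske iron-sulphur protein of complex III, at 0.47. The selection does not hold every core subunit, and others were called upward there, among them Ndufv2 (above), Ndufs8 of complex I (0.65), Uqcrc2 of complex III (0.56) and Atp5c1, the central stalk of complex V (0.54). Ndufv1, which holds the NADH binding site, had -0.05, with 68.7, 52.1 and 49.4 fed and 51.3, 52.3 and 59.4 fasted, and these overlapped. Atp5a1 had 0.19, with 455, 332 and 325 fed and 390, 409 and 457 fasted. Among the 77 members with a mean log2 CPM over 1, the fold change ran against log2 transcript length with Pearson's r = -0.47 and Spearman's rho = -0.52, as a description across genes that share the same 6 libraries. Members under 1000 bases had a median of 0.74 and longer members 0.32.

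**Figure D2:**
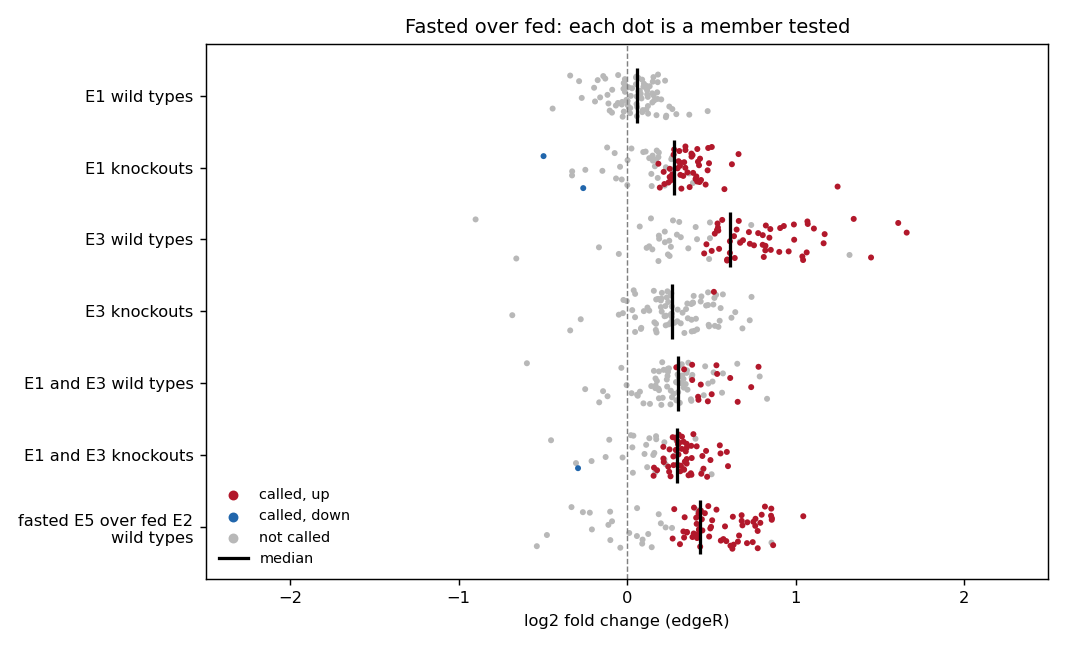
Each dot is the edgeR log2 fold change, fasted over fed, of 1 member in 1 comparison, coloured by whether it was called, and black bars are medians. The median is 0.61 in E3 wild types, 0.28 in E1 knockouts and 0.06 in E1 wild types, where 0 members are called.

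In E1 knockouts, a comparison added after other results of these data were seen, 49 of 83 members rose and 2 fell, against 34.9% of all genes called, 18.3% upward and 16.6% downward. The median was 0.28, beside 0.01 over all genes, and short genes outside the pathway had 29.6% called and a median of 0.07. Both main subunits of the complex V catalytic head were called. Atp5a1 stood at 366, 387, 402 and 371 in fed knockouts and at 586, 625, 547 and 521 in fasted ones, a log2 fold change of 0.58 (SE 0.08, edgeR adjusted p = 0.000367). Atp5b stood at 493, 524, 518 and 489 fed and at 709, 783, 666 and 666 fasted, a change of 0.48 (SE 0.07, edgeR adjusted p = 0.000837). The 2 feeding states did not overlap for either subunit of the catalytic head.

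Ndufv1 went from 73.6, 79.9, 85.6 and 78.8 to 119, 120, 107 and 100 in E1 knockouts, a change of 0.49 (SE 0.08, edgeR adjusted p = 0.00101). Ndufb9, an accessory subunit of complex I, went from 19.3, 21.0, 24.9 and 22.2 to 33.4, 37.4, 35.2 and 32.8, a change of 0.66 (SE 0.09, edgeR adjusted p = 0.000376). All 9 subunits of the selection above were called upward in E1 knockouts, from 0.22 for Ndufs1 to 0.58 for Atp5a1. Ndufs7 of complex I (0.27) and Atp5c1 (0.11), which are not in the selection, were not called. Sdha and Sdhb, the flavoprotein and iron-sulphur subunits of complex II, had 0.35 and 0.27. By complex, 21 of 38 rose in complex I, 3 of 4 in complex II, 4 of 8 in complex III, 11 of 15 in complex IV and 10 of 18 in complex V. Cox7b2, a paralogue of Cox7b at low level, stood at 2.67, 1.98, 2.31 and 2.89 fed and at 2, 5.09, 5.71 and 10.7 fasted; it was called at 1.25 although 1 fasted library stood within the fed range.

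In complex II, the only complex here with all of its subunits encoded in the nucleus, Sdha stood at 266, 276, 260 and 290 in fed E1 knockouts and at 382, 371, 335 and 302 in fasted ones, which did not overlap. In E1 wild types it stood at 308, 278, 293 and 309 fed and at 355, 358 and 277 fasted, and these overlapped through the third fasted library. Uqcrfs1 stood at 42.4, 42.5, 42.1 and 38.7 in fed and at 56.3, 59.1, 52.3 and 48.5 in fasted E1 knockouts, a change of 0.38. In E1 wild types it stood at 46.4, 43.4, 45.7 and 49.7 fed and at 53.5, 57.5 and 40.6 fasted, a change of 0.12 that was not called.

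The 3 genes of the complex V ring subunit rose together in E1 knockouts. Atp5g1 went from 64.3, 62.1, 73.4 and 63.2 to 87.9, 95.3, 84.3 and 84.2, a change of 0.42 (SE 0.07, edgeR adjusted p = 0.00176). Atp5g2 and Atp5g3 had 0.31 and 0.37 and were called as well. The changes in E3 wild types were 0.46, 0.29 and 0.49, of which the first was called, and between fasted E5 and fed E2 wild types they were 0.59, 0.71 and 0.43, all called.

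Of the common tissue forms of complex IV, Cox6a1, Cox6b1, Cox7a2, Cox7a2l, Cox7b and Cox8a were called in E3 wild types, E1 knockouts and the E5 against E2 comparison alike. Cox8a stood at 82.1, 69.8 and 66.3 in fed and at 101, 117 and 124 in fasted E3 wild types, and at 91.7, 90.6, 94.9 and 89.0 in fed and 127, 137, 105 and 120 in fasted E1 knockouts. Fed and fasted libraries did not overlap in either. The rare forms Cox6b2, Cox7a1 and Cox4i2 were called in no fasting comparison, at levels where few reads were counted. Cox7a1 had -0.17 in E3 wild types and -0.33 in E1 knockouts, with 0.658 to 2.45 scaled CPM over all 72 libraries.

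The 2 members that fell in E1 knockouts were Ndufb2 and Ndufab1, both accessory subunits of complex I, the latter also the acyl carrier protein of mitochondrial fatty acid synthesis. Ndufb2 stood at 17.1, 16.9, 17.6 and 15.9 in fed and at 11.8, 11.1, 12.7 and 12.4 in fasted E1 knockouts, with no overlap, and fell by 0.50 on the log2 scale (SE 0.08, edgeR adjusted p = 0.00105). In E1 wild types it stood at 17.0, 15.7, 14.8 and 19.4 fed and at 12.6, 13.1 and 11.3 fasted, a log2 fold change of -0.44 that missed the threshold (edgeR adjusted p = 0.053). Ndufab1 stood at 27.0, 28.5, 27.9 and 25.7 fed and at 24.2, 23.4, 21.4 and 22.3 fasted in the knockouts, a change of -0.26. Both had positive values in E3 wild types, 0.26 for Ndufb2 and 0.19 for Ndufab1, and neither was called there.

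Markers of region and cell type moved with fasting in E1 knockouts. The neuronal genes summed to 1901 to 2080 fed and 2180 to 3022 fasted and 4 oligodendrocyte genes to 2583 to 3003 and 3197 to 5933, neither with overlap. The thalamic genes Tcf7l2, Prkcd and Lef1 summed to 102 to 127 in fed and to 161 to 531 in fasted E1 knockouts, and all 3 were called upward. The hypothalamic list summed to 344 to 445 fed and to 187.6 to 341 fasted, and 3 of its 8 genes were called downward. In E3 wild types the thalamic sum was 524 to 607 fed and 173.3 to 482 fasted, and the hypothalamic sum 130 to 158 fed and 185 to 264 fasted. The median log2 fold change of the thalamic list was 1.19 in E1 knockouts and -0.98 in E3 wild types, that of the hypothalamic list -0.55 and 0.27, and that of the members 0.28 and 0.61. The part of the dissection and of cell makeup in the members' values was not tested.

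In E1 wild types 0 of 84 members were called, against 5.27% of all genes (2.3% up and 2.97% down). By unadjusted p under 0.05 there were 6, against 23.7% of all genes, and DESeq2 called 1. The median was 0.06. The third fasted library, in which the members summed to 4107, bore on this: without it 11 members were called and the median was 0.15. The share of all genes called without it is not given here. In that library Cox7b stood at 44.5, against 58.5 and 61.7 in the other fasted wild types and 42.1 to 56.6 in the fed ones.

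In E3 knockouts, also a comparison added later, 1 of 83 members was called upward, against 0.505% of all genes (0.491% up and 0.0136% down), with a median of 0.26. At an unadjusted p under 0.05 there were 36 members, 13.1% of all genes being so. The gene was Uqcrc1, a core protein of complex III, at 118, 116 and 124 fed and at 155, 175 and 178 fasted, with no overlap, a change of 0.51 (SE 0.09, edgeR adjusted p = 0.049). This call rests near the threshold and was lost, with 0 called, under a GC or a length correction, RLE size factors and a replicate block. DESeq2 called 16 members there, and its share of all genes called is not given here.

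Fitted over both lines with line as a term, fasting raised 15 of 84 members in wild types and lowered 0, against 10.7% of all genes called (5.13% up and 5.59% down), with a median of 0.30. This fit takes the same fasting effect in both lines, although the response of wild types differed between them, as given below. Cox6c, among the 15, had 0.78 jointly, -0.01 in E1 and 1.61 in E3 wild types. Cox7a2l had the smallest p, at 69.6, 63.4, 70.2 and 73.9 in fed E1, 91.1, 84.99 and 74.5 in fasted E1, 100, 73.8 and 77.9 in fed E3 and 120, 125 and 136 in fasted E3 wild types. Its change was 0.42 (SE 0.09, edgeR adjusted p = 0.0118), and fasted and fed libraries did not overlap in either line. Ndufb4 had 0.66 (SE 0.14), Ndufb9 0.50 (SE 0.11) and Uqcr10, a small subunit of complex III, 0.48 (SE 0.13). This count depended on single libraries, being 53 without the third E1 fasted wild type and 3 without the second or the third E3 fed wild type. It was 1 without 2 libraries that held other tissue, the first E3 fasted wild type (choroid plexus list 476) and the second E1 fed wild type (muscle list 178). The shares of all genes called in these smaller fits are not given here.

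In knockouts of both lines 53 of 84 members rose and 1 fell, Ndufb2 at -0.29, against 19.2% of all genes called (10.8% up and 8.36% down), with a median of 0.30. Uqcrc1 again had the smallest p. In E1 knockouts it went from 115, 122, 129 and 122 fed to 164, 196, 162 and 161 fasted, and jointly with E3 its change was 0.49 (SE 0.06, edgeR adjusted p = 0.000142). Other members among those called with the smallest p were Cox7a2l (0.45, SE 0.06), Atp5a1 (0.47, SE 0.07) and Ndufb9 (0.60, SE 0.10). By complex 24 of 38 rose in complex I, 4 of 4 in complex II, 7 of 8 in complex III, 8 of 16 in complex IV and 10 of 18 in complex V.

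The fasted E5 and fed E2 wild types shared a batch but not a line, so fasting and line cannot be told apart between them. There 60 of 84 members were higher in fasted E5 and 0 lower, against 30.7% of all genes called (15.7% higher and 15% lower), with a median of 0.43. All 8 members of complex III and 16 of 18 of complex V were called, beside 25 of 38 in complex I, 2 of 4 in complex II and 9 of 16 in complex IV. Cox8a stood at 74.3, 64.2, 61.6 and 59.9 in fed E2 and at 120, 134, 116 and 92.4 in fasted E5, a log2 difference of 0.86 (SE 0.11, edgeR adjusted p = 0.000348). Cox7b stood at 48.0, 41.3, 40.8 and 45.3 against 77.2, 77.0, 73.0 and 61.8, a difference of 0.75 (SE 0.09, edgeR adjusted p = 0.000272). Neither gene's libraries overlapped. Short genes outside the pathway had 42.1% called and a median of 0.24. Without the libraries that held pituitary or choroid plexus RNA, which leaves 1 fasted E5 library, the members' median was 0.62.

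Of the comparisons that share no library, the members called in E3 wild types and in E1 knockouts had 30 in common, 58.8% of each list of 51, where 61.4% of all members tested were called in E1 knockouts and 62.2% in E3 wild types. E3 wild types and the E5 against E2 comparison had 42 in common, 82.4% of 51 and 70% of 60, where 71.4% of all members tested were called between E5 and E2. E1 knockouts and the E5 against E2 comparison had 41 in common, 80.4% of 51 and 68.3% of 60.

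Whether the line changed the response to fasting was tested directly, in comparisons added after the data were seen. Among wild types, 37 of 84 members rose more in E3 than in E1 and 0 rose less, against 13.1% of all genes called (6.15% up and 6.99% down), with a median difference of 0.51. Cox6c had the smallest p, at 31.9, 30.02, 30.3 and 32.97 fed and 30.3, 35.2 and 27.7 fasted in E1 wild types, so that the difference in its log2 fold change was 1.59 (SE 0.19, edgeR adjusted p = 0.00135). Atp5md differed by 1.65 (SE 0.23), Uqcrb by 1.56 (SE 0.21) and Ndufb1 by 1.14 (SE 0.21). Across 77 members the difference in wild types ran against log2 transcript length (Pearson's r = -0.42, Spearman's rho = -0.51), as a description. With a length trend taken out, the count of members called and their median were lower, as given below. The part of length was not otherwise tested. Among knockouts, where 6.85% of all genes were called (3.88% up and 2.97% down), 1 member differed, Atp5j2 of complex V, by 0.46 (SE 0.12, edgeR adjusted p = 0.03), with a median over members of 0.03. Line, batch and sex cannot be told apart here either, since Ddx3y was at most 0.0615 in E1.

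**Figure D3:**
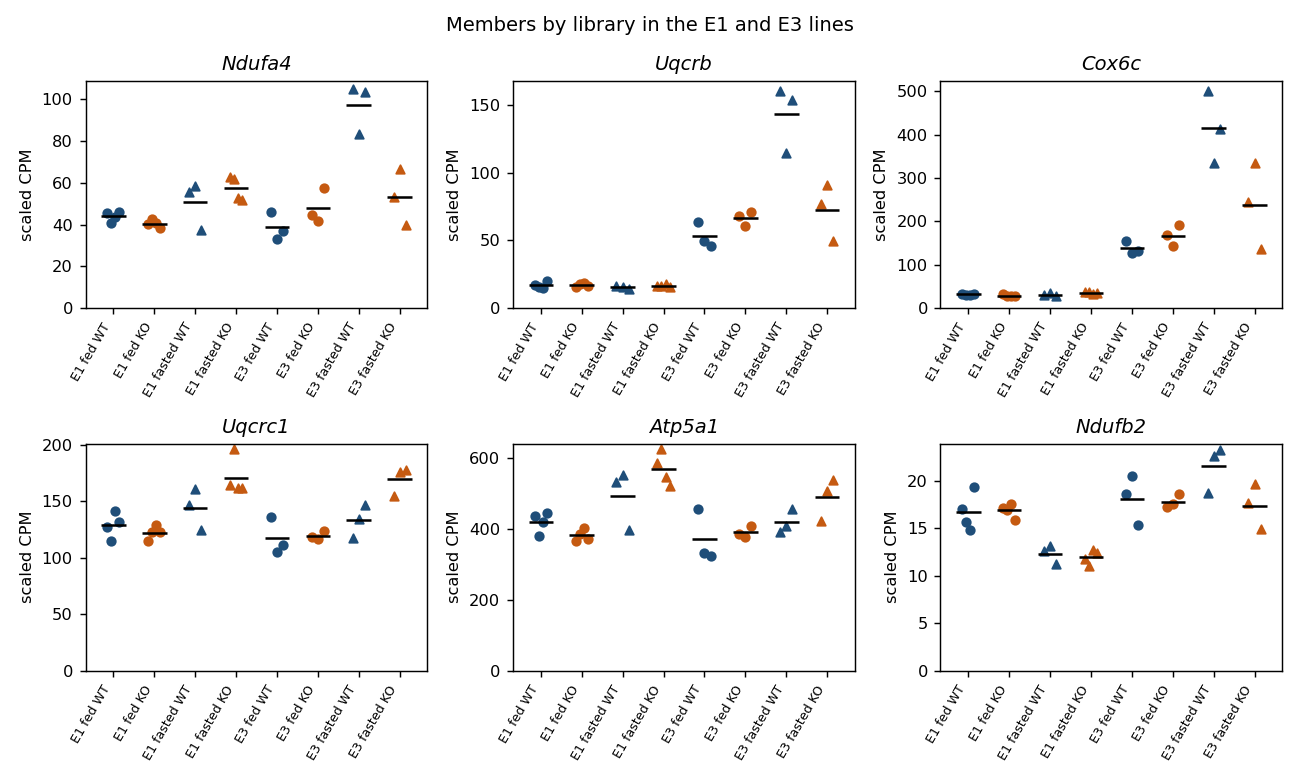
Each point is 1 library and gives the level of 1 member in scaled CPM, for the fed and fasted wild types and knockouts of E1 and E3; bars are group means and each axis starts at 0. Fasted E3 wild types stand apart for Ndufa4 and Uqcrb (83.6 to 105 and 115 to 160), while Uqcrc1 is higher in fasted knockouts of both lines.

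The knockouts were then compared with their wild types within each line and feeding state. By edgeR 0 members were called in any of the 10 comparisons, and 0% of all genes were called in each. At an unadjusted p under 0.05 there were 8 members in E1 fed, 1 in E1 fasted, 7 in E2 fed, 17 in E2 fasted, 5 in E3 fed, 22 in E3 fasted, 0 in E4 fed, 27 in E4 fasted, 1 in E5 fed and 33 in E5 fasted mice. Over all genes the share at that p was, in the same order, 4.85%, 3.9%, 3.5%, 7.47%, 9.74%, 17.5%, 5.23%, 9.39%, 2.82% and 7.32%. The members' counts come to more than these shares of the members tested in E1 fed, E2, E3 fasted, E4 fasted and E5 fasted mice. DESeq2 called 1 member in E2 fasted and 10 in E3 fasted mice, and 0 in the other 8 comparisons. Its shares of all genes called are not given here. In the authors' deposited tables for 8 of the comparisons 0 members had an adjusted p under 0.05, and the smallest for a member was 1. Over all genes listed there, those under 0.05 ran from 1 of 18265 in E4 fed to 43 of 18093 in E4 fasted mice.

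The members' median log2 difference, knockout over wild type, had opposite signs in fed and fasted mice of E1, E3, E4 and E5 and the same sign in E2, with 0 members called by edgeR. It was 0.23 in fed and -0.20 in fasted E4, with 80 of 83 and 10 of 83 members above 0. In E5 it was 0.04 fed and -0.23 fasted, with 57 of 82 and 4 of 83 above 0, and in E3 0.10 fed and -0.22 fasted, with 66 of 83 and 19 of 82 above 0. In E1 the order was the other way, -0.08 fed (16 of 83 above 0) and 0.13 fasted (77 of 83). E2 had 0.17 fed (73 of 84) and 0.21 fasted (74 of 84). The members move together within a library, so these counts are not independent observations. Several of these medians rest on single libraries. The E5 fed value was -0.074 without the fourth knockout, the sign of E5 fasted mice, and 0.133 without the third. The E1 fasted value was 0.04 without the third wild type, and the E3 fed value was 0.04 without the third knockout. The E4 fed value was 0.05 without the fourth wild type, in which the members summed to 2464 and the cytosolic ribosomal protein genes to 2388, their lowest in the series.

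**Figure D4:**
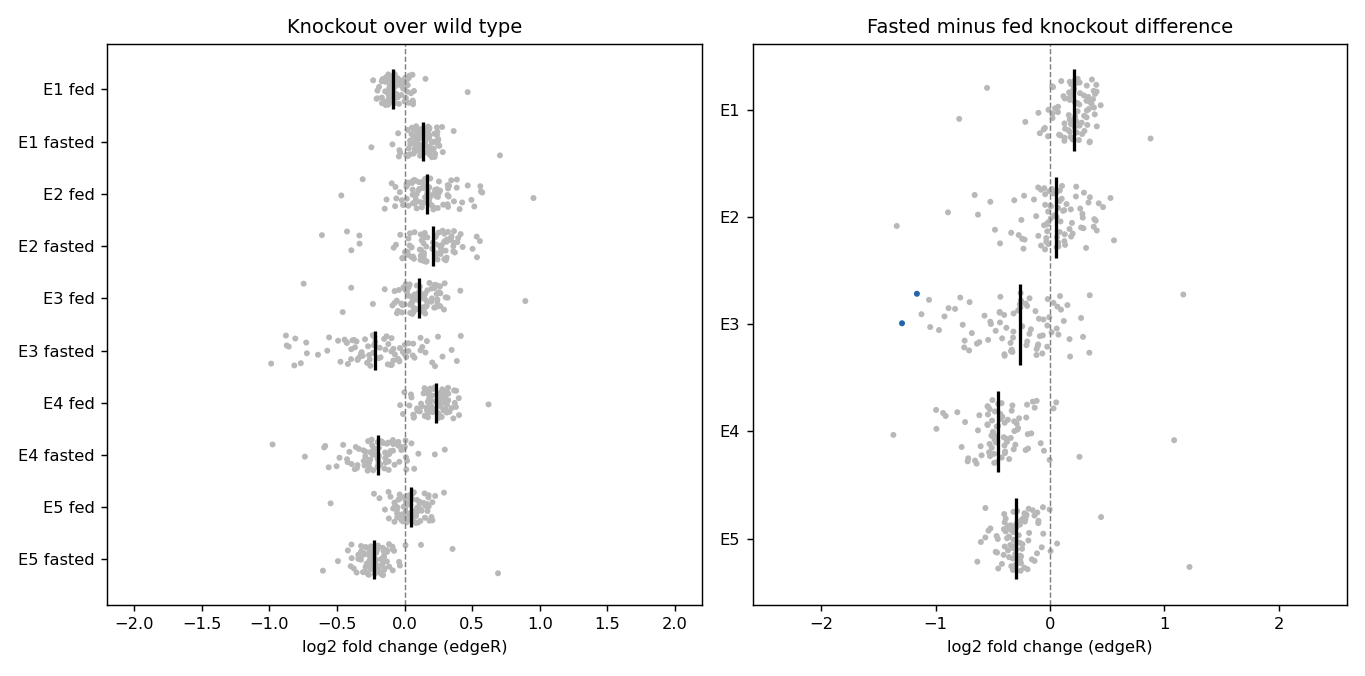
Left, the edgeR log2 difference of knockout over wild type for each member, by line and feeding state; right, the fasted minus the fed difference in each line. Black bars are medians. On the left 0 members are called, and on the right 2 members of E3, Uqcrb and Ndufa4, are called downward.

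In E3 fasted mice the members with the smallest p were small subunits that stood lower in knockouts. Ndufa4 stood at 105, 83.6 and 104 in wild types and at 53.3, 66.6 and 39.8 in knockouts, which did not overlap, with a log2 difference of -0.88 (SE 0.19, edgeR adjusted p = 0.151). Cox7b stood at 127, 100 and 135 in wild types and at 73.5, 75.9 and 51.2 in knockouts, with -0.86 (SE 0.18, edgeR adjusted p = 0.148). The core subunits Ndufv1 and Uqcrc1 had differences of 0.39 and 0.35 in the other direction. Across 77 members the difference ran with transcript length (Pearson's r = 0.41, Spearman's rho = 0.45) and with GC content (0.46 and 0.45), as a description across genes of the same 6 libraries. The index of GC-rich over GC-poor genes was -1.14, -0.75 and -1.05 in the fasted wild types and -0.63, -0.68 and -0.28 in the fasted knockouts. With a GC trend taken out, the members' call count in E3 fasted mice was still 0, and the part of GC in the differences was not otherwise tested.

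In E2 fasted mice Atp5md stood at 46.8, 46.0 and 40.3 in wild types and at 64.4, 71.7 and 59.99 in knockouts, a difference of 0.56 (SE 0.11, edgeR adjusted p = 0.66). Ndufa4 stood at 42.8, 43.3 and 33.7 against 53.6, 58.4 and 57.7, a difference of 0.50 (SE 0.12). Neither gene's groups overlapped, and neither was called. The third wild type stood apart in this group, with Cox6a1 at 203.9 against 40.7 and 38.3. Without it 28 members were called by edgeR, all higher in knockouts, and with the other wild types left out in turn 0 were. The share of all genes called in that fit is not given here, so the 28 has no background beside it. All 3 wild types carried pituitary RNA (1304, 11888 and 5748 in the pituitary list), so a group without such libraries could not be formed.

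In E5 fasted mice Ndufa6, an accessory subunit of complex I, stood at 38.2, 44.3, 43.2 and 34.6 in wild types and at 30.9, 33.2, 26.9 and 30.4 in knockouts. The groups did not overlap and the difference was -0.40 (SE 0.10, edgeR adjusted p = 0.667). Ndufa12 had -0.30 (SE 0.08). In E4 fasted mice Cox5a, a subunit of complex IV, had -0.42 (SE 0.14) and Atp5g1 -0.35 (SE 0.10), both with an edgeR adjusted p = 0.496. The first of the 3 E4 fasted knockouts stood apart, with 36.3% of its reads in its 10 highest genes, against at most 9.02% in every other library, and with the lowest depth, 5517552 reads. Without it Cox5a had -0.28 and Atp5g1 -0.27, and the members' median was -0.23. That median was -0.11 without the third knockout, which held pituitary RNA (6570 in the pituitary list).

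Whether genotype changed the response to fasting was tested by the interaction. By edgeR it was called for 2 of 83 members in E3, both downward, against 1.34% of 15033 genes (0.486% up and 0.858% down). Uqcrb had an interaction of -1.29 (SE 0.28, edgeR adjusted p = 0.0457), with 68.1, 60.6 and 71.0 in fed and 76.8, 90.9 and 49.2 in fasted knockouts beside the wild type values above. Ndufa4 had -1.16 (SE 0.26, edgeR adjusted p = 0.0482), with 44.7, 41.9 and 57.6 in fed and 53.3, 66.6 and 39.8 in fasted knockouts. In the knockouts of E3 the 2 feeding states overlapped for both genes, while in wild types they did not. Both calls lie close to the threshold: 0 members were called with a GC trend taken out, with a replicate block, without the libraries that held choroid plexus RNA, or with any of 10 of the 12 libraries left out. The count also moved upward. It was 12 without the second E3 fasted wild type, and DESeq2 called more members than edgeR, as given below. The shares of all genes called in those fits are not given here. The edgeR test of the interaction called 0 members and 0% of all genes in E1, E2, E4 and E5, with 19, 1, 19 and 13 at an unadjusted p under 0.05 (8.1%, 6.45%, 11.2% and 5.95% of all genes) and 0 by DESeq2, and medians of 0.21, 0.06, -0.45 and -0.29. In E2, E4 and E5 the feeding states differ in batch, so this term also holds any difference of the genotype effect between batches.

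Other genes of mitochondria and of translation were followed from fixed lists. Of 79 cytosolic ribosomal protein genes, which are also short and highly expressed, 63 of 70 tested rose with fasting in E3 wild types (median 0.79), 68 of 70 in E1 knockouts (0.47) and 68 of 71 between fasted E5 and fed E2 (1.06). In E1 wild types 6 of 71 rose (0.25). In each of these comparisons their median was above that of the members. Of 72 mitochondrial ribosomal proteins tested, 19 rose and 0 fell in E3 wild types (26.4% called, against 19.9% of all genes). In E1 knockouts 13 rose and 5 fell (25%, against 34.9%), and between E5 and E2 40 rose and 3 fell (59.7%, against 30.7%).

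The assembly factors of the respiratory complexes were called about as often as other genes or less. In E3 wild types 6 of 42 rose and 2 fell (19.0%, against 19.9% of all genes), and in E1 knockouts 5 of 43 rose and 7 fell (27.9%, against 34.9%). Surf1, needed for complex IV assembly, rose by 0.52 (SE 0.08) in E1 knockouts, and Bcs1l, needed for complex III, had -0.59 (SE 0.10). Ndufaf2, an assembly factor of complex I, had -0.49 (SE 0.11) in E3 wild types. Of 14 citric acid cycle genes 7 rose in E3 wild types (50%), among them Dld (0.85, SE 0.13), and 7 rose and 1 fell in E1 knockouts (57.1%), Mdh2 (0.44, SE 0.08) among the former.

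Carriers and transporters of the inner and outer membranes, formed a list of 12, of which 11 were tested. In E3 wild types 6 rose, among them Cycs, the gene of cytochrome c, at 1.02 (SE 0.10), and 1 fell, Slc25a27, a brain uncoupling protein, at -0.50 (SE 0.11). In E1 knockouts 5 rose and 0 fell, with Slc25a5, an ATP and ADP exchanger, at 0.64 (SE 0.06). Among 20 regulators of mitochondrial genes 1 rose and 5 fell in E3 wild types (30%, against 19.9% of all genes), with Gabpa at 0.43 (SE 0.09), Ppargc1b at -0.64 (SE 0.15) and Esrra at -0.49 (SE 0.12). In E1 knockouts 2 rose and 4 fell (30%, against 34.9%), with Nrf1 at -0.68 (SE 0.06) and Ppargc1a at 0.29 (SE 0.07).

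**Figure D5:**
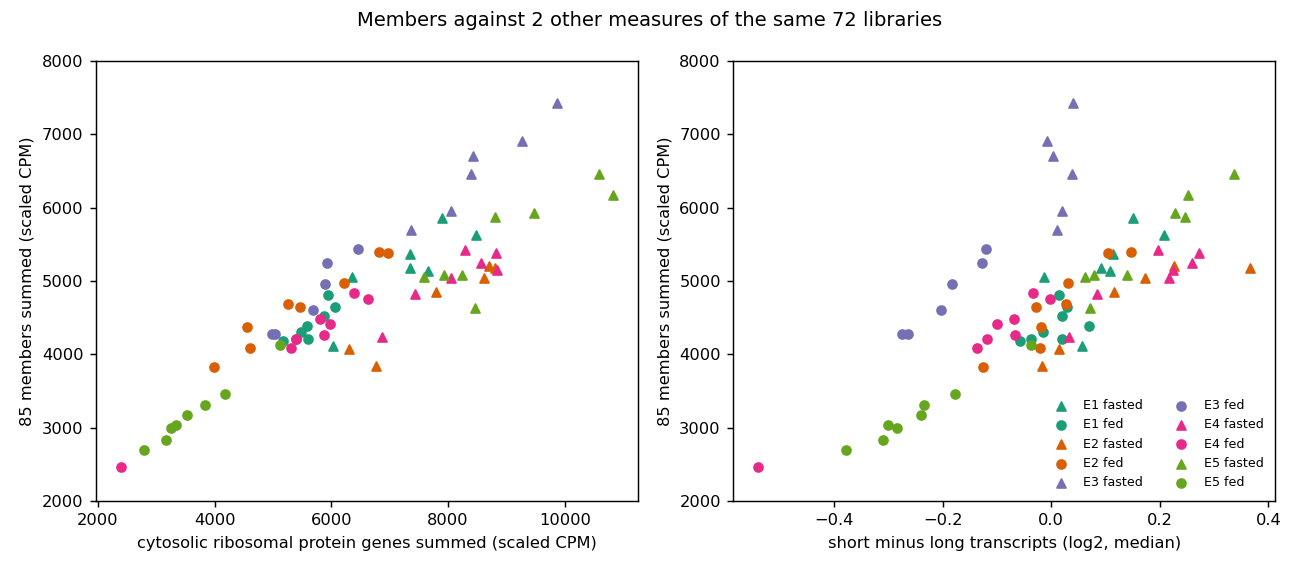
Each point is 1 of the 72 libraries; the vertical axis is the 85 members summed in scaled CPM, and the horizontal axes are the cytosolic ribosomal protein genes summed (left) and the index of short over long transcripts in log2 (right). The library with the lowest members' sum, 2464, also has the lowest ribosomal sum, 2388.

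Members with and without the core words were both called. Of 18 members with an NRF1 or GABPA word 13 rose in E3 wild types (72.2%, median 0.61), and of 50 with neither 31 did (62.0%, median 0.60). In E1 knockouts 12 of 18 (66.7%, median 0.27) and 30 of 50 (median 0.28) rose, and 2 of the latter 50 fell. Between fasted E5 and fed E2 15 of 18 (83.3%, median 0.58) and 36 of 51 (70.6%, median 0.43) were higher. Of the promoters printed above, Ndufa6 carries the NRF1 word 83 bases before its start, and its gene was called in 5 of the 7 fasting comparisons, some of which share libraries. Ndufa4 carries none of the words in the window shown, and it was also called in 5.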

How the data were processed

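Whole-number counts of reads per gene, deposited by the authors in 10 tables, were made with HISAT2, Bowtie2 and build mm10, per the submitters' processing notes, which give no versions; the counting tool, its use of strand and the library strandedness are not given in the sources used here. The authors' deposited edgeR tables give log2 ratios of wild type over knockout and p-values for 8 comparisons, and supplied gene names. Columns of the E3 tables are headed ctrl and 3CR, not fed and fasted; they were matched to libraries by genotype and number, and their feeding state by the table they stand in, and 0 count columns were left without a sample.

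Tests used edgeR 4.0.16 (quasi-likelihood, TMM, filterByExpr with 10 reads per library and 15 in all) in R 4.3.3, with Benjamini-Hochberg adjustment over all genes; scripts were tested on simulated data. DESeq2 1.42.0 served as an alternative. The GC and length corrections passed each library's lowess trend to edgeR as an offset. The package limma 3.58.1 was loaded, and no separate limma fit was run. SE is the log2 fold change divided by the square root of F. Depth was 5517552 to 39999368 reads, and replicates are the only measure of error. Of 96 pairs of libraries within groups, none agreed within counting noise (chi-square per degree of freedom 2.88 to 533). Length and GC are those of the principal GENCODE transcript. Members and lists were chosen with earlier results of these data known. Genes named are those of smallest p, up to 10 called per direction or the first 2 where none was called, the core subunits, the tissue forms, the ends of the order of levels and, from other lists, up to 4 called genes; Sdhd, Ndufs5, Ndufb1, Ndufb9 and other members named for their values in another comparison were chosen after their values were seen. Some genes that the rule selects are not reported here. Fasting within E1 and E3 knockouts, the difference between lines and the fits without libraries holding other tissue (a marker list of 150 CPM or more) were added after the data were seen.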

Additional observations from a re-analysis of the deposited data

Results flagged for a closer look

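The fourth E4 fed wild type stood apart from its group, where the members summed to 2460 scaled CPM against 4200 to 4480 in the other 3. The same library was low for complex I (877), complex II (283), complex IV (275) and complex V (808). Cox6a1 stood apart in the third E1 fed knockout (63.6 against 45.2 to 46.1), in the first E2 fed wild type (55.9 against 37.2 to 39.9) and in the fourth E5 fasted wild type (46.4 against 58.7 to 59.6). Cox8b stood apart in the third E2 fed knockout (2.42), the library whose fat list summed to 9053, and in the first E4 fasted wild type (0.597). Ndufa4l2 stood apart in the first E2 fed wild type (1.16). A gap test within each group of 4 libraries gave these 11 among 156 tests, and chance gives about 1 in 20.

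Effects of the same contrast that differed between groups were the interaction of genotype and feeding in E3, called for 2 of 83 members by edgeR (1.34% of all genes) and for 0 under a GC correction, a replicate block or most omissions of 1 library, and the difference in the fasting effect between E3 and E1, called for 37 of 84 members in wild types (13.1% of all genes) and for 1 of 84 in knockouts (6.85% of all genes). The E3 interaction was called for 12 members without the second E3 fasted wild type. The share of all genes called in that fit is not given here.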

How the results depend on the processing

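Of the named members' values, 880 of 918 kept direction and side of the threshold under other settings and 1133 of 1242 with 1 library left out; counts of members called were equal to the reported count or within 1.5 times of it in 340 of 412 fits. Medians moved by less than the SD between replicates in 407 of 412, which still allows a change of sign near 0. With 1 library left out this happened in E5 fed mice (-0.074 to 0.133), the E2 interaction (-0.0193 to 0.179), fasting in E1 wild types (-0.0175 to 0.146) and the line difference in knockouts (-0.0171 to 0.0793), the last also with a GC or a length trend taken out. The cause was not tested unless named. Counts of members called in this section are given without the shares of all genes called in the same fits. DESeq2 called 1 member in E2 fasted and 10 in E3 fasted knockouts against wild types, 33 for fasting in E1 and E3 wild types, 1 in E1 wild types, 16 in E3 knockouts, 11 for the E3 interaction and 2 for the line difference in knockouts. Both feeding states in one model called 7 in E3 fasted mice. With the GC trend taken out, 23, 1, 0, 0 and 2 were called for fasting in E1 and E3 wild types, E1 wild types, E3 knockouts, the E3 interaction and the line difference in knockouts. With the length trend taken out, 7 were called in E1 and E3 wild types, 30 in their knockouts, 24 in E3 wild types (median 0.212), 0 in E3 knockouts, and 20 (median 0.213) and 4 for the line difference in wild types and knockouts. For fasting in E3 knockouts RLE size factors called 0 and no filter on low counts 5. Without libraries holding other tissue, with fewer libraries in the fit, 1 was called in E1 and E3 wild types, 0 in E3 knockouts, 0 for the E3 interaction, and 23 and 0 for the line difference, and the E5 against E2 median was 0.622.

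Replicate numbers did not pair the samples throughout: with numbers from the labels, correlations of same-numbered libraries ran from -0.391 to 0.591. Between E3 fasted wild types and knockouts, each library correlated best with its own number, though weakly (0.047 to 0.224). A replicate block gave 46 members for fasting in E3 wild types, 0 in E3 knockouts and 0 for the E3 interaction.

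With 1 library left out, members called ranged from 0 to 28 in E2 fasted mice, 3 to 53 for fasting in E1 and E3 wild types, 36 to 53 in their knockouts, 0 to 11 in E1 wild types, 28 to 53 in E3 wild types, 33 to 59 in E1 knockouts, 0 to 3 in E3 knockouts, 48 to 64 for E5 against E2, 0 to 12 for the E3 interaction and 26 to 43 and 0 to 5 for the line difference in wild types and knockouts. The median ranged from 0.0518 to 0.324 for E4 fed mice and from -0.527 to -0.255 for the E4 interaction. Signs reversed, for members not called in the full fit, in these ranges with 1 library left out. For knockout over wild type these were Atp5mpl in E1 fed (-0.0153 to 0.136), Cox6a1 in E2 fasted (-0.704 to 0.964, the highest called with adjusted p = 0.0402 by edgeR), Ndufs4 in E2 fasted (-0.171 to 0.0989) and E4 fed (-0.0727 to 0.0562), Cox5a in E3 fed (-0.154 to 0.0018), Ndufa12 (-0.0743 to 0.484) and Uqcrb (-0.212 to 0.471) in E4 fasted, and Uqcrc1 in E5 fasted mice (-0.0703 to 0.0822). Uqcrc1 there had -0.0421 without the GC trend and -0.0015 with both feeding states in one model. For the interaction they were Cox6a1 in E2 (-1.3 to 0.426), Ndufa12 in E4 (-0.127 to 0.444) and Ndufs4 in E4 (-0.0578 to 0.0997) and E5 (-0.0111 to 0.115). Ndufs4 in E4 had -0.0027 without the GC trend and -0.0613 without other tissue, and -0.041 without other tissue in E5.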

Other observations

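Within E4 and E5 fasting went with the batch label, so the following levels are values without a test. Ndufs4, an accessory subunit of complex I whose loss causes encephalopathy, stood lower in fasted than in fed libraries while most members stood higher. In E5 wild types Ndufs4 was at 87.5, 87.5, 93.9 and 86.6 scaled CPM fed and at 66.1, 73.7, 67.6 and 78.3 fasted, and in E4 wild types at 78.0, 82.1, 77.6 and 103 fed and at 50.8, 56.4, 51.8 and 52.7 fasted. The highest of these, 103, was the fourth E4 fed wild type, the library lowest for the members summed. In E3 wild types, within one batch, Ndufs4 stood at 86.6, 97.3 and 95.7 fed and at 110, 84.6 and 111 fasted. Its log2 fold change with fasting was 0.14 there and -0.05 in E3 knockouts. In E1, also within one batch, it was -0.18 in wild types and -0.15 in knockouts. Ndufs4 was called in none of these comparisons. Atp5g3 went the other way in E5 wild types, at 44.3, 48.2, 32.9 and 35.2 fed and at 94.2, 121, 108 and 82.1 fasted, with no overlap.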
